A study of Mus musculus with 16 samples.

Results

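The genes described here code for the scaffold proteins of the postsynaptic density, in cortical interneurons that express parvalbumin (PV). They are Dlg1, Dlg2, Dlg3 and Dlg4, Shank1, Shank2 and Shank3, and Homer1, Homer2 and Homer3, chosen by name, 10 of the 54532 genes in the deposited tables. All 10 were measured in 16 RNA-seq libraries and all 10 passed the filter on low counts, as did 26257 genes in all. The libraries came from adult mice (113.1 ± 11.6 days old over the study) that carried PV-Cre, which drives Cre in PV cells, and a conditional transgene for either eGFP (9 libraries, the control) or eGFP-GluA2 (7 libraries). The transgene was meant to remove calcium-permeable AMPA receptors from these cells. Cortical tissue was digested, fixed for 15 min and dissociated, and green cells with a stained nucleus were sorted before polyA RNA was sequenced. The libraries are numbered as biological replicates. The labels tie no library to a litter, a sex or a sequencing batch, and p-values measure the spread between these libraries.

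The postsynaptic density is the protein lattice under the membrane of glutamatergic synapses. Proteins of the Dlg family (SAP97 from Dlg1, PSD-93 from Dlg2, SAP102 from Dlg3 and PSD-95 from Dlg4) bind the tails of NMDA receptors, of AMPA receptor auxiliary proteins and of potassium channels through PDZ domains. Shank proteins form the deeper layer, tied to the Dlg layer through SAPAP proteins (genes Dlgap1 to Dlgap4), and Homer proteins link Shank to group I metabotropic glutamate receptors and to the calcium release channels of internal stores. PV interneurons receive most of their glutamatergic synapses directly on smooth dendritic shafts, where these scaffolds hold AMPA receptors that often lack GluA2.

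Total counts were 7454165 to 15462544 per library. Gria2, the gene of GluA2, whose counts can hold reads of both the transgene and the endogenous gene, was at 963 ± 215 CPM (counts scaled to library size; SD, n = 7) with eGFP-GluA2 and 587 ± 111 CPM (SD, n = 9) with eGFP alone. Its log2 fold change was 0.71 ± 0.16 (SE), with an adjusted p of 1.00 in edgeR's quasi-likelihood test and of 0.0145 once the background level, defined next, enters as a covariate. The libraries stood apart by the reads they hold from 1450 receptor genes of sensory neurons in the nose (olfactory and vomeronasal). The sum of these reads, called background here, was 82.4 to 162 CPM in 5 low-background libraries (3 of eGFP, replicates 7 to 9, and 2 of eGFP-GluA2, replicates 6 and 7). It was 676 to 1277 CPM in 5 middle libraries (2 of eGFP, replicates 5 and 6, and 3 of eGFP-GluA2, replicates 2, 4 and 5) and 1911 to 4148 CPM in 6 high-background libraries (4 of eGFP, replicates 1 to 4, and 2 of eGFP-GluA2, replicates 1 and 3). Pvalb, the gene of parvalbumin, was at 399 ± 55.0 CPM (SD, n = 5) in low-background and 147 ± 53.7 CPM (SD, n = 6) in high-background libraries. Slc17a7, a vesicular glutamate transporter of excitatory neurons, was at 46.6 ± 13.4 and 26.5 ± 7.90 CPM in these libraries. The tests on the scaffold genes are therefore given over all libraries and by background. In these bulk samples fewer cells of a type and less RNA per cell cannot be told apart. Genes with a count above 0 numbered 30087 to 33334 in low-background and 47975 to 49971 in high-background libraries. The part of this difference in the levels of single genes was not tested.

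All 10 scaffold genes were detected in every library, and their levels spanned a wide range. Levels between genes are compared in TPM, the authors' length-scaled unit. Dlg2 was highest, at 58.4 ± 12.3 TPM (SD, n = 16; 44.1 to 91.6), followed by Dlg4 at 39.8 ± 7.43 TPM (30.0 to 61.5). Shank1 at 25.7 ± 5.59 TPM, Dlg1 at 25.5 ± 5.12 TPM and Homer1 at 22.9 ± 6.59 TPM formed a middle group. These 3 were not ordered beyond their spread: Shank1 exceeded Dlg1 in 11 of 16 libraries (log2 difference 0.01 ± 0.36, SD over libraries), and Dlg1 exceeded Homer1 in 12 (0.17 ± 0.30). Below them came Dlg3 at 18.1 ± 4.23 TPM, Shank3 at 11.6 ± 2.70 TPM, Shank2 at 5.79 ± 1.28 TPM, Homer2 at 4.11 ± 1.14 TPM and Homer3 at 1.14 ± 0.65 TPM. The other neighbours in this order kept it in all 16 libraries, except Shank2 over Homer2, which held in 15.

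**Figure D1:**
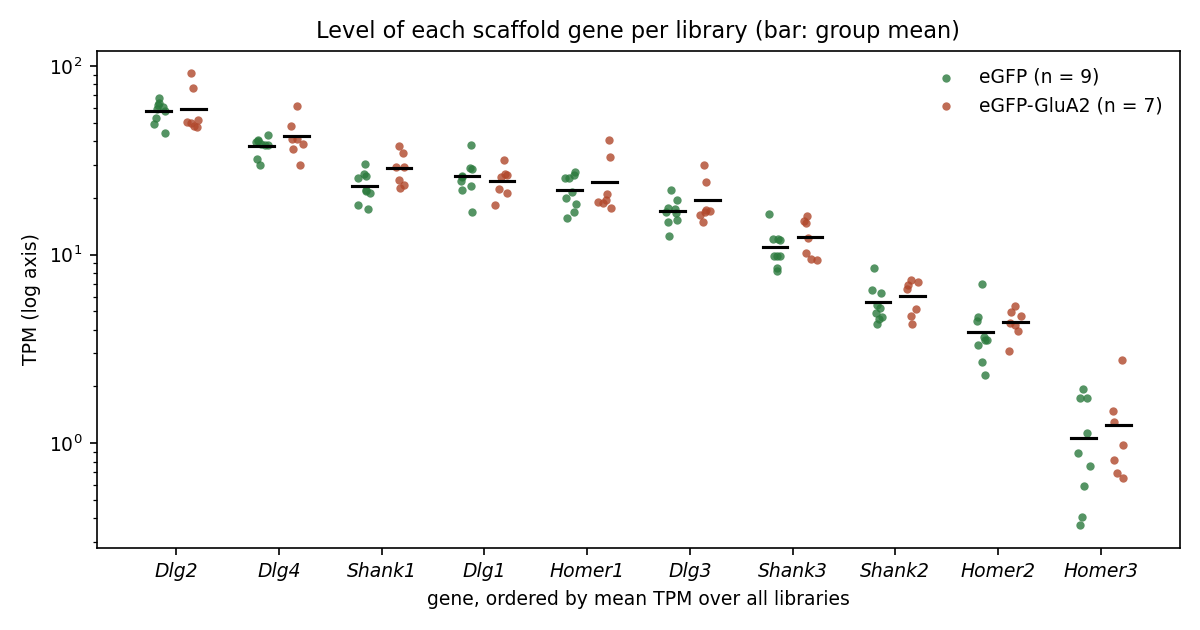
TPM (log axis) of the 10 scaffold genes in each library, ordered by the mean over all libraries, for eGFP (n = 9) and eGFP-GluA2 (n = 7); each point is a library and the bar is the group mean. Dlg2 (44.1 to 91.6 TPM) and Homer3 (0.37 to 2.78 TPM) mark the ends of the order, and the 2 genotypes overlap for every gene.

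The highest TPM of Dlg2, Dlg3, Dlg4, Shank1 and Homer1 came from eGFP-GluA2 replicates 6 and 7. Homer1 was at 40.5 and 33.0 TPM there, against 15.7 to 27.5 TPM in the 9 eGFP libraries and 17.8 to 21.0 TPM in the other 5 eGFP-GluA2 libraries. Dlg2 was at 91.6 and 76.3 TPM there, against 44.1 to 67.9 TPM in eGFP. In CPM Homer1 was at 125 and 124 there, inside the 118 to 147 CPM of the 3 eGFP libraries of low background, and Dlg2 and Dlg3 overlapped with those libraries too. Dlg4 and Shank1 lay above those 3 libraries in CPM as well, Dlg4 narrowly (216.5 CPM in eGFP-GluA2 replicate 7 against 216.3 CPM in eGFP replicate 9).

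The genes lie on 7 chromosomes (GRCm38, GENCODE M21). Dlg1 lies on chromosome 16 (31663443 to 31875129, plus strand), Dlg2 on chromosome 7 (90476672 to 92449247, plus), Dlg3 on chromosome X (100767722 to 100818410, plus) and Dlg4 on chromosome 11 (70016942 to 70047522, plus). Shank1 (44310253 to 44360572, plus) and Shank2 (144001928 to 144424494, plus) lie on chromosome 7 as well, and Shank3 on chromosome 15 (89499623 to 89560261, plus). Homer1 lies on chromosome 13 (93299635 to 93405129, plus), Homer2 on chromosome 7 (81600481 to 81707527, minus) and Homer3 on chromosome 8. 

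Within each family the same gene led in all 16 libraries. Dlg2, whose product clusters receptors and potassium channels, held 41.1% ± 2.11 (SD, n = 16) of the summed TPM of the 4 Dlg genes, ahead of Dlg4 with 28.1% ± 2.22, Dlg1 with 18.1% ± 2.96 and Dlg3 with 12.7% ± 1.08. Shank1 held 59.5% ± 5.02 of the Shank sum, Shank3 27.0% ± 3.23 and Shank2 13.5% ± 2.08. Homer1, which has both long isoforms that cross-link and short activity-induced isoforms that do not, held 80.8% ± 5.87 of the Homer sum. Homer2 held 14.9% ± 4.08 and Homer3 4.24% ± 2.43. The deposited tables give 1 value per gene, so the Homer1 isoforms cannot be told apart here. Shares by genotype were close: Homer1 held 81.4% ± 5.96 (n = 9) with eGFP and 80.0% ± 6.13 (n = 7) with eGFP-GluA2, Shank1 58.5% ± 5.49 and 60.9% ± 4.37, and Dlg2 41.6% ± 1.86 and 40.3% ± 2.31.

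Did expression of eGFP-GluA2 in PV cells change the genes of the scaffold? None of the 10 passed the test. In edgeR's quasi-likelihood test 0 of 10 were called at an adjusted p under 0.05, beside 0.00381% of all genes tested (1 of 26257). An unadjusted p under 0.05 was found in 0 of 10, beside 1.12% of all genes tested. DESeq2 (0.0617% of all genes called) and limma-voom called 0 of 10 as well. Of the 10 log2 fold changes 6 were above 0 and 4 below, with a median of 0.06, against a median of -0.02 over all genes tested. With the background level as a covariate, which called 0.0343% of all genes, 0 of 10 passed again, and the median was 0.06.

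Among the Dlg genes, Dlg1 was at 61.6 to 127 CPM (median 93.5) in the 9 eGFP libraries and at 57.1 to 100 CPM (median 85.0) in the 7 eGFP-GluA2 libraries. The ranges overlapped, with eGFP-GluA2 replicates 1 and 3 below every eGFP library and eGFP replicates 7, 8 and 9 above every eGFP-GluA2 library, and the log2 fold change was -0.14 ± 0.18 (SE; 95% interval -0.52 to 0.23). Dlg2 ran from 223 to 426 CPM (median 325) with eGFP and from 211 to 377 CPM (median 329) with eGFP-GluA2, a log2 fold change of -0.01 ± 0.18 (-0.38 to 0.36). Dlg3 gave 0.07 ± 0.21 (-0.38 to 0.52) and Dlg4 0.08 ± 0.21 (-0.36 to 0.52). The intervals of the 4 Dlg genes thus reached from -0.52 to 0.52 on the log2 scale in the fit without a covariate.

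Among the Shank genes, Shank1 ran from 159 to 416 CPM (median 246) with eGFP and from 175 to 390 CPM (median 299) with eGFP-GluA2, with a log2 fold change of 0.15 ± 0.19 (-0.26 to 0.56). Shank3, the Shank gene deleted in Phelan-McDermid syndrome, gave 0.12 ± 0.12 (-0.12 to 0.37) and Shank2 0.05 ± 0.11 (-0.19 to 0.29). Among the Homer genes, Homer1 ran from 71.4 to 147 CPM (median 86.2) with eGFP and from 65.9 to 125 CPM (median 100.2) with eGFP-GluA2, and its log2 fold change was -0.01 ± 0.18 (-0.39 to 0.37). Homer2 had the narrowest interval of the 10, at -0.01 ± 0.08 (-0.17 to 0.16). Homer3 had the widest, at 0.21 ± 0.28 (-0.37 to 0.79), with 15 to 62 counts per library. The adjusted p of each of the 10 was 1.00.

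**Figure D2:**
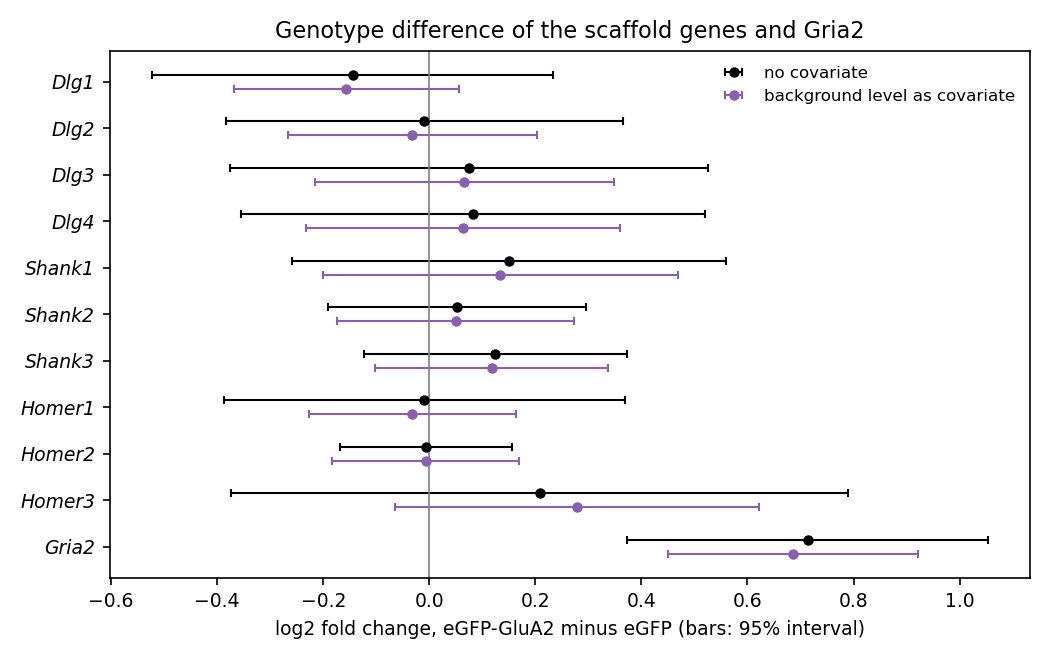
Log2 fold change of eGFP-GluA2 minus eGFP (horizontal axis; bars are 95% intervals) for the 10 scaffold genes and Gria2, in edgeR, first without a covariate and then with the background as one. The intervals of all 10 scaffold genes cross 0 in both fits, while those of Gria2 (0.71 and 0.69) lie above 0.

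With the background as a covariate the standard errors of 9 of the 10 became smaller. Dlg1 was then at -0.16 ± 0.10 (95% interval -0.37 to 0.06), Homer1 at -0.03 ± 0.09 (-0.23 to 0.16) and Homer3 at 0.28 ± 0.17 (-0.07 to 0.62), each with an adjusted p of 1.00. The interaction of genotype with background, which asks whether the genotype difference changes along the background, called 0% of all genes and 0 of the 10. Its unadjusted p was under 0.05 in 0 of 10, beside 2.14% of all genes. In the authors' deposited table the 10 genes had adjusted p-values of 1.00 too, and the smallest unadjusted p among them was that of Dlg1, 0.0830, at a log2 fold change of -0.16. Gria2 was at 0.85 in that table, with an adjusted p of 4.63e-09 in the authors' DESeq2 test.

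Within libraries of like background, Dlg1, Dlg2 and Homer3 kept 1 direction at each level. The share of all genes that did so was not counted, so this sets these genes apart from no others. The mean log2 CPM of Dlg1, eGFP-GluA2 minus eGFP, was -0.25 at low, -0.10 at middle and -0.27 at high background, that of Dlg2 was -0.03, -0.05 and -0.18, and that of Homer3 was 0.35, 0.36 and 0.16. Dlg1, whose product SAP97 binds the AMPA receptor subunit GluA1, had the largest of the negative values. In low-background libraries Dlg1 was at 101, 127 and 122 CPM with eGFP and 100.4 and 94.8 CPM with eGFP-GluA2. In middle libraries it was at 93.5 and 95.9 CPM with eGFP and 80.7, 99.8 and 85.0 CPM with eGFP-GluA2, which overlapped. In high-background libraries it was at 68.2, 85.4, 64.2 and 61.6 CPM with eGFP and 57.1 and 57.9 CPM with eGFP-GluA2. The genotypes did not overlap in 3 of 10 scaffold genes at low background (Dlg1 lower, Dlg4 and Shank1 higher), beside 24.5% of all genes, and in 0 of 10 at middle background, beside 18.1%. At high background they did not overlap in 3 of 10, Dlg1, Dlg2 and Homer1, all lower with eGFP-GluA2, beside 11.1% of all genes (5.5% in that direction). These groups hold 2 to 4 libraries each, and some gaps were narrow. The nearest libraries of eGFP-GluA2 and eGFP were at 100.4 and 100.6 CPM for Dlg1 at low background and at 216.5 and 216.3 CPM for Dlg4 at low background. For Homer1 at high background they were at 71.1 and 71.4 CPM. Homer1 gave -0.06 at low and 0.12 at middle background, and Shank1 gave 0.29 at low, -0.23 at middle and 0.05 at high background, so neither kept its direction. With background level as a block in edgeR's quasi-likelihood test, Dlg1 was at -0.21 ± 0.09 (unadjusted p = 0.0185, adjusted p = 0.981). It was the only one of the 10 with an unadjusted p under 0.05 in that fit, beside 4.57% of all genes.

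Of 15 markers of excitatory neurons 0 were called by genotype, beside 0.00381% of all genes. Their log2 fold changes were above 0 in 12 of 15 (median 0.18), beside 45.5% of all genes (median -0.02), and their summed level ran from 388 to 684 CPM with eGFP and from 455 to 712 CPM with eGFP-GluA2. With the mean log2 CPM of these markers as a covariate Dlg1, Dlg2 and Homer1 turned to 0.23, 0.33 and 0.33 in edgeR's quasi-likelihood test, with adjusted p-values of 0.238, 0.150 and 0.147. The excitatory markers also differed by background. Their summed level was 621 ± 52.4 CPM at low, 666 ± 30.8 CPM at middle and 465 ± 48.2 CPM at high background. The covariate is a mean of log2 values and not this sum. Marker by marker, 8 were called higher and 7 lower at high background, beside 44% and 32.9% of all genes. Their median log2 fold change, high minus low, was 0.77, opposite in direction to the sum. The part of these markers in the values of the scaffold genes was not tested. The defining markers of excitatory neurons were not at 0 in any library.

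Of the genes that work beside the scaffold none was called by genotype either. This fit called 0.00381% of all genes and put 45.5% of all genes above 0, with a median of -0.02. Of 36 scaffold partners (SAPAP proteins, enzymes and adaptors of the density) 25 lay above 0, 0 were called, and the median was 0.05. The 2 of smallest p were Mpp3, a membrane-associated guanylate kinase (0.15 ± 0.10; 59.3 ± 6.72 against 53.5 ± 7.61 CPM), and Tanc1, a scaffold protein of the density (0.14 ± 0.10). Of 21 receptors, adhesion proteins and store channels that the scaffold binds 15 lay above 0 and 0 were called. Here the smallest p belonged to Ryr1 and Ryr2, calcium release channels that Homer binds, with log2 fold changes of 0.25 ± 0.13 and 0.20 ± 0.16. Of 11 genes of the inhibitory postsynapse 8 lay above 0 and 0 were called, with Dmd (dystrophin) at -0.12 ± 0.12 and Iqsec3, which binds gephyrin, at 0.14 ± 0.16. With the background as a covariate 0 genes of these 3 lists were called, beside 0.0343% of all genes.

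The scaffold genes differed between libraries of high and low background. Between high-background and low-background libraries 7 of 10 were called in edgeR's quasi-likelihood test with the genotype in the model. All 4 Dlg genes, Shank1 and Homer1 were lower at high background and Homer3 was higher, while Shank2, Shank3 and Homer2 did not pass. This contrast called 76.8% of all genes tested, 44% higher and 32.9% lower, so that 7 of 10 is near the background share. The median log2 fold change of the 10 was -0.53, against 0.20 over all genes tested.

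All 4 Dlg genes were called lower at high background, with different courses through the middle libraries. Dlg1 was at 109 ± 14.6 CPM (SD, n = 5) in low-background, 91.0 ± 7.91 CPM (n = 5) in middle and 65.7 ± 10.5 CPM (n = 6) in high-background libraries. Its log2 fold change, high minus low, was -0.74 ± 0.10 (SE; edgeR adjusted p = 6.25e-08). Dlg2 fell by 0.71 ± 0.11 on that scale (adjusted p = 4.16e-07 in edgeR), from 352, 426, 377, 376 and 375 CPM in the low-background libraries to between 211 and 273 CPM (median 228) in the high ones. In CPM the means of Dlg3 and Dlg4 in the middle libraries were 0.99 and 1.06 times those in the low ones, and those of Dlg1 and Dlg2 0.83 and 0.88 times. Dlg3 was at 157, 167, 172, 160 and 160 CPM in the low, at 154, 164, 159, 177 and 151 CPM in the middle and at 76.3 to 132 CPM (median 87.0) in the high-background libraries. Dlg4 was at 216 ± 4.66, 229 ± 13.9 and 131 ± 27.9 CPM. Their log2 fold changes were -0.81 ± 0.11 (edgeR adjusted p = 1.13e-07) and -0.72 ± 0.11 (edgeR adjusted p = 1.3e-06). Of the 6 high-background libraries eGFP replicate 2, the one with the least background, had the highest CPM of each Dlg gene. In TPM the course differed, with Dlg3 at 22.7 ± 4.81 TPM in low, 16.6 ± 0.83 TPM in middle and 15.6 ± 1.82 TPM in high-background libraries, and Dlg4 at 45.9 ± 9.60, 39.9 ± 1.38 and 34.6 ± 4.57 TPM.

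**Figure D3:**
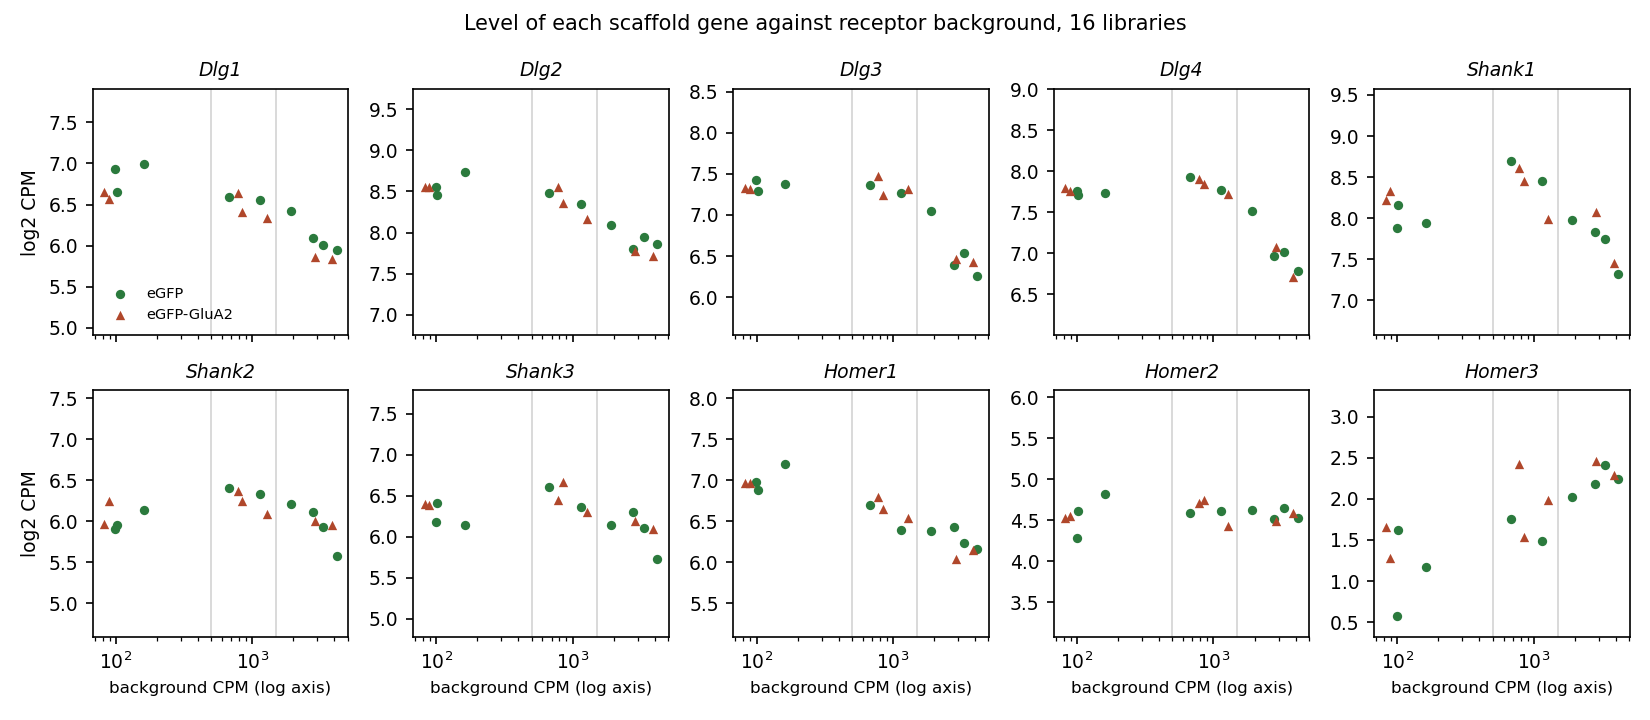
Log2 CPM of each scaffold gene (vertical axis, every panel 3 log2 units tall) against the background CPM of the library (log axis), for 9 eGFP and 7 eGFP-GluA2 libraries; grey lines at 500 and 1500 CPM divide low, middle and high background. Dlg3 and Dlg4 stay level up to the middle libraries and drop in the high ones, Homer1 declines from the low libraries on, and Homer3 rises.

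In TMM-scaled CPM the Shank genes were highest in the middle libraries. Shank1 was at 278 ± 36.7 CPM (SD, n = 5) in low-background, 352 ± 61.1 CPM (n = 5) in middle and 217 ± 42.9 CPM (n = 6) in high-background libraries. In 4 of 5 middle libraries it exceeded every low-background library; the exception was eGFP-GluA2 replicate 2, at 255 CPM. High minus low gave -0.35 ± 0.14 (edgeR adjusted p = 0.0207). This call was lost on leaving out any 1 of 9 libraries (5 of eGFP, replicates 2, 3, 4, 5 and 7, and 4 of eGFP-GluA2, replicates 1, 2, 4 and 5), with log2 fold changes of -0.22 to -0.33 and adjusted p-values of 0.0509 to 0.141. Of 9 other settings of scaling, filter, input or tool, only 4 kept the call, and 1 changed the sign. Under RLE scaling the log2 fold change was -0.26 (edgeR adjusted p = 0.0705). Shank2 was at 66.2 ± 6.75, 78.2 ± 6.61 and 62.9 ± 8.90 CPM (high minus low -0.07 ± 0.10, edgeR adjusted p = 0.524), and Shank3 at 79.2 ± 7.13, 89.4 ± 9.75 and 68.7 ± 8.65 CPM (-0.20 ± 0.10, edgeR adjusted p = 0.0741). Both 95% intervals cross 0 (-0.28 to 0.14 for Shank2 and -0.41 to 0.01 for Shank3). The course differed in TPM, where Shank2 was lowest in the middle libraries (5.52 ± 1.19 at low, 4.90 ± 0.43 at middle and 6.75 ± 1.30 TPM at high background), as was Shank3 (12.2 ± 3.34, 9.47 ± 0.66 and 12.9 ± 2.35 TPM). Shank1 was at 27.9 ± 8.34, 26.5 ± 3.23 and 23.2 ± 4.10 TPM.

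The 3 Homer genes went 3 ways. Homer1 was at 118, 147, 126, 125 and 124 CPM in the low-background libraries, at 83.8, 104, 93.0, 111 and 100.2 CPM in the middle ones and at 65.9 to 86.2 CPM (median 73.4) in the high ones. All 5 middle libraries lay below every low-background library, and the log2 fold change, high minus low, was -0.77 ± 0.10 (edgeR adjusted p = 3.11e-08). Homer2 did not pass the test, at 23.6 ± 3.20, 24.4 ± 2.07 and 23.5 ± 1.06 CPM (-0.01 ± 0.10, 95% interval -0.20 to 0.19, edgeR adjusted p = 0.965). Homer3 was at 2.89, 2.06, 1.30, 2.97 and 2.25 CPM in the low-background libraries, at 2.62, 3.18, 3.78, 5.19 and 2.72 CPM in the middle ones and at 3.87 to 5.31 CPM (median 4.64) in the high ones. It rose by 1.04 ± 0.20 on the log2 scale (edgeR adjusted p = 3.26e-05). In log2 CPM the high and low libraries did not overlap for Homer3, which was higher, beside 37.9% of all genes, nor for 5 of 10, which were lower, the 4 Dlg genes and Homer1, beside 26%.

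The shares within the Homer family differed by background as well. Homer1 held 87.3% ± 1.68 (SD, n = 5) of the Homer TPM in low-background, 81.0% ± 3.06 (n = 5) in middle and 75.3% ± 4.02 (n = 6) in high-background libraries. In the same order Homer2 held 11.03% ± 1.38, 14.8% ± 3.34 and 18.3% ± 3.23, and Homer3 held 1.72% ± 0.51, 4.22% ± 1.35 and 6.35% ± 2.10. From low to high background the mean share of Homer2 thus gained more percentage points than that of Homer3. The ratio of Homer1 to Homer3 TPM was 33.8 to 75.0 at low, 13.0 to 28.5 at middle and 6.84 to 19.3 at high background, without overlap between low and middle or low and high. In the Shank family the share of Shank1 was 60.9% ± 1.21, 64.7% ± 3.14 and 54.1% ± 1.90. In the Dlg family no gene's mean share moved by more than 5 percentage points, but that of Dlg1 was 16.7% ± 1.48, 16.4% ± 1.02 and 20.7% ± 3.28.

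**Figure D4:**
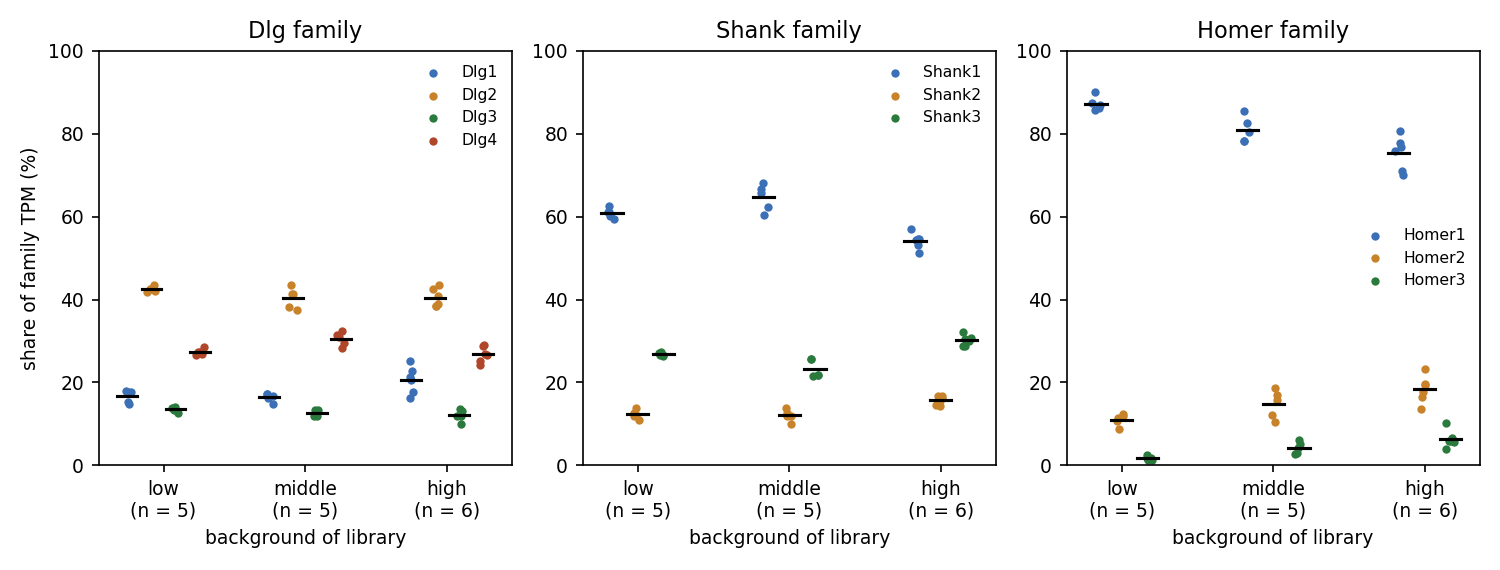
Percent of the summed TPM of its family held by each gene (vertical axis, 0 to 100%) in low (n = 5), middle (n = 5) and high (n = 6) background libraries; each point is a library and the bar is the mean. The mean Homer1 share steps down from 87.3% to 75.3% and those of Homer2 and Homer3 rise. The mean Dlg1 share is 16.7% in low, 16.4% in middle and 20.7% in high-background libraries.

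Because the 3 Homer genes took different courses, the 250 bases before 1 RefSeq start of each are shown (GRCm38.p6, read 5′ to 3′ on the strand of the gene). Capitals mark TGACG, the core of the site that CREB binds, on either strand, and the GC box GGGCGG, on either strand, which Sp factors bind. Homer1 is shown from chr13:93303507-93303756 (plus strand), Homer2 from chr7:81706926-81707175 (minus strand) and Homer3 from chr8:70282749-70282998 (plus strand).
Homer1: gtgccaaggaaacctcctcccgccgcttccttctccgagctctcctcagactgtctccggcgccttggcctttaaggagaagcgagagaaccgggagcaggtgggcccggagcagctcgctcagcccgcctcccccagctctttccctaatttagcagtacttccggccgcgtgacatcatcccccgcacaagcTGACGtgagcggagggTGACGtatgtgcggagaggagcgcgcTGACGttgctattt
Homer2: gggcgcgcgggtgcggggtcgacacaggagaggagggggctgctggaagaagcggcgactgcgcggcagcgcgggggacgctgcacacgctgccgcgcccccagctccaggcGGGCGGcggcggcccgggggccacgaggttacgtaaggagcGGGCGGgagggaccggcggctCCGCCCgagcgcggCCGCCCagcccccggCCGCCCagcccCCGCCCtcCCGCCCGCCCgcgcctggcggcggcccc
Homer3: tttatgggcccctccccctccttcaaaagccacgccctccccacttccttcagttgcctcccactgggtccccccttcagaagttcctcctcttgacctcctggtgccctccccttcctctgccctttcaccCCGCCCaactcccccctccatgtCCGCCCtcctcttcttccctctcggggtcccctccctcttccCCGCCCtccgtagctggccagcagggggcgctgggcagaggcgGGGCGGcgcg
The Homer1 window held 3 copies of TGACG and no GC box, at 62.4% G and C with 21 CpG. The Homer2 window held 8 GC boxes and no TGACG, at 83.2% G and C with 40 CpG. The Homer3 window held 4 GC boxes and no TGACG, at 68% G and C with 11 CpG. RefSeq gave another start for Homer1 (chr13:93307784-93308033) and for Homer2 (chr7:81692966-81693215). The windows before those starts, not shown, held no TGACG and no GC box, at 46.8% and 52% G and C. The contrast between the printed windows thus holds for the starts shown. Of 32817 windows of this length in RefSeq, 17.7% held TGACG at least once and 0.689% at least 3 times, while 32.7% held a GC box, 4.09% at least 4 and 0.155% at least 8. The palindrome TGACGTCA, which holds TGACG on each strand, was in 1.55% of all windows and in none of the 18 windows found for 8 of the 10 genes (Shank1 and Shank2 had no entry). GENCODE M21 places the first base of Homer1 and Homer2 further upstream than these windows, and that of Homer3 inside its window. No binding was measured, and these matches describe the sequence alone.

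Counts of Homer3 (ENSMUSG00000003573, chromosome 8, 70282827 to 70294361, plus strand) may hold reads of a neighbour. It shares 874 exon bases, 25.4% of its own, with Ddx49, an RNA helicase gene on the opposite strand, and the sources used here do not say whether counting used strand. Ddx49 was at 22.2 ± 1.43 CPM in low-background and 15.5 ± 2.93 CPM in high-background libraries, opposite in direction to Homer3. The exon overlaps of the other members with neighbouring genes were 4.16% or less of their exon bases.

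How far the background differences reached depended on the scaling. TMM scaling, used above, put 11546 genes higher and 8629 lower at high background. Upper-quartile scaling put 15853 higher and 4469 lower, with a median of 0.66 over all genes in place of 0.20. Under it 9 of 10 scaffold genes were called (77.4% of all genes): 4 higher (60.4% of all genes), Homer3 and also Shank2 at 0.38, Shank3 at 0.25 and Homer2 at 0.45, and 5 lower (17% of all genes), the 4 Dlg genes and Homer1. In limma on log2(TPM + 0.5) 5 of 10 were called (69% of all genes), with 26309 genes higher and 5548 lower and a median of 0.76. Dlg1 was then at -0.06 (adjusted p = 0.745) in place of -0.74. Reads of Dlg1 recovered from the authors' normalized values were 0.80 to 1.38 per deposited count in high-background and 0.75 to 0.85 in low-background libraries, so its 2 kinds of count differ by background. Dlg2, Dlg3, Dlg4 and Homer1 lower and Homer3 higher were called under each of 9 other settings of scaling, filter, input or tool. Relative to the median of all genes, the log2 fold changes in TMM scaling were -0.94 for Dlg1, -0.91 for Dlg2, -1.01 for Dlg3, -0.92 for Dlg4 and -0.97 for Homer1. They were -0.55 for Shank1, -0.27 for Shank2, -0.40 for Shank3, -0.21 for Homer2 and 0.84 for Homer3. These relative values depend on which genes set the median: over 10 settings Homer3 ran from -1.23 to 1.24, Homer2 from -2.27 to 0.11 and Shank2 from -2.33 to 0.03. Dlg1 ran from -3.01 to -0.36, Dlg2 from -2.98 to -0.60, Dlg3 from -3.07 to -0.71, Dlg4 from -2.98 to -0.62 and Homer1 from -3.03 to -0.65. Shank1 ran from -2.61 to -0.25 and Shank3 from -2.46 to -0.09. The lowest value of each came without a filter on low counts, where the median of all genes was 2.23.

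**Figure D5:**
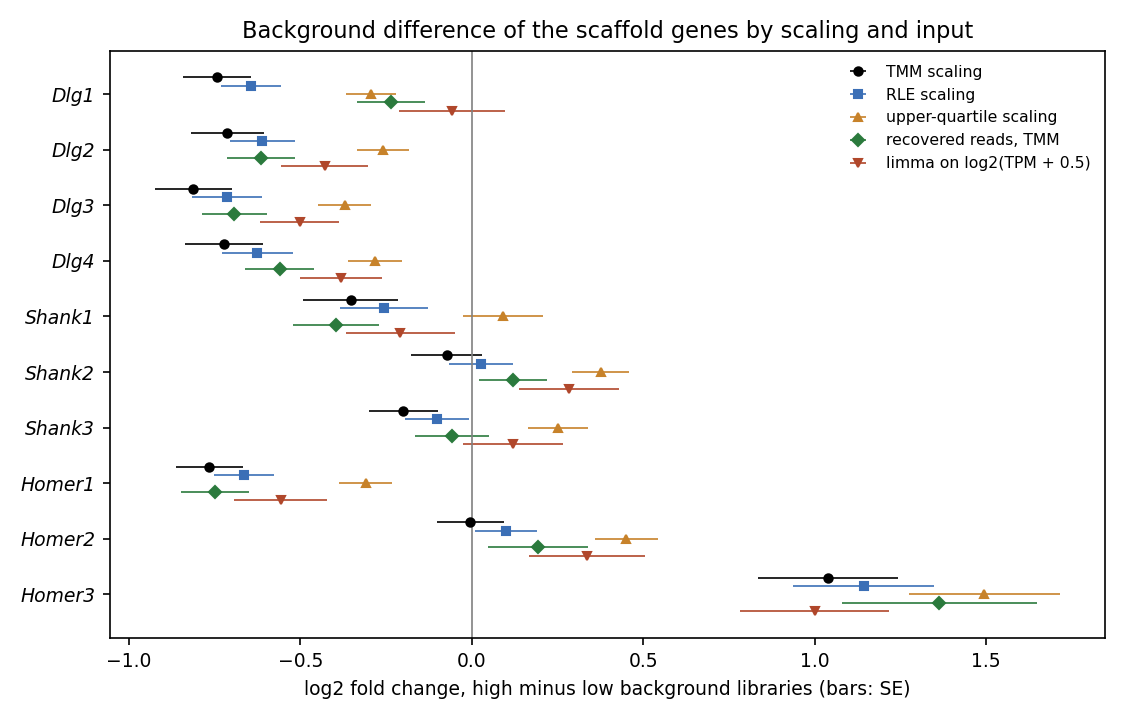
Log2 fold change of high minus low background (horizontal axis; bars are SE) of the 10 scaffold genes under 3 scalings of the deposited counts, on recovered reads and on log2(TPM + 0.5). Homer3 lies right of 0 and Dlg2, Dlg3, Dlg4 and Homer1 left of 0 under all 5, while Shank1, Shank2, Shank3 and Homer2 change side.

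Partners of the scaffold lay lower at high background as well. Of 36 scaffold partners 32 were called lower and 2 higher (median -0.58), beside 32.9% of all genes lower and 44% higher (median 0.20). Iqsec1, an exchange factor for Arf proteins in the density (-0.95 ± 0.15; 669 ± 48.1 CPM at low and 347 ± 103 CPM at high background), and Cask, a guanylate kinase of synaptic membranes (-0.94 ± 0.11), were the lowest. Baiap2, which binds Shank and Rac (0.62 ± 0.15), and Nos1, the neuronal nitric oxide synthase that PSD-95 binds (0.55 ± 0.11), were the 2 higher ones. Of 21 bound receptors, adhesion proteins and store channels 17 were called lower and 3 higher (median -0.73), beside the same shares of all genes. Cacng2, the gene of the AMPA receptor auxiliary protein stargazin (-1.05 ± 0.13; 231 ± 14.0 to 112 ± 28.9 CPM), and Kcnj4, an inward rectifier potassium channel that PSD-95 binds (-1.02 ± 0.13), were the lowest. Ryr3, a calcium release channel of internal stores (2.24 ± 0.14; 7.68 ± 1.16 to 35.8 ± 7.38 CPM), and Grin2c, an NMDA receptor subunit (0.76 ± 0.16), rose. Of 11 genes of the inhibitory postsynapse 10 were called lower (median -0.72), beside 32.9% of all genes, among them Insyn1 (-1.04 ± 0.12) and Lhfpl4 (-0.93 ± 0.13), a partner of GABA-A receptors, and Mdga1, which binds neuroligins, higher (3.37 ± 0.19).

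Marker lists moved with the background too, in a contrast that called 44% of all genes higher and 32.9% lower. All 15 PV interneuron markers were called lower (median -0.95; summed level 13387 to 14180 CPM at low and 5253 to 9475 CPM at high background). Of 15 excitatory markers 8 were called higher and 7 lower (median 0.77). Their sum went the other way from this median, at 586 to 712 CPM at low and 388 to 531 CPM at high background. All 4 markers of oligodendrocyte precursors and 9 of 10 endothelial and mural markers were called higher, from sums of 5.95 to 10.6 and 11.2 to 20.1 CPM to sums of 35.1 to 40.5 and 59.2 to 81.2 CPM. Of these lists the endothelial and mural one had markers at 0: Cdh5 and Kcnj8, each in 2 libraries. Further lists of 10 markers each were mixed. Of astrocyte markers 6 were called higher and 3 lower, with mean sums of 294 CPM at low and 166 CPM at high background. Of oligodendrocyte markers it was 3 and 2 (141 and 107 CPM), of other interneurons 5 and 3 (312 and 212 CPM), and of microglia 7 and 1 (41.6 and 52.4 CPM). The part of these cell types in the levels of the scaffold genes was not tested.

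The Dlg genes and the Shank genes varied together within background levels, and the Homer genes less so. With each library's log2 CPM centred on the mean of its background level, Pearson's r over 16 libraries was 0.64 to 0.88 for the 6 pairs of Dlg genes and 0.62 to 0.75 for the 3 pairs of Shank genes. It was 0.01 to 0.40 for the 3 pairs of Homer genes and -0.38 to 0.67 for the 33 pairs across families. The points share library, depth and scaling, so these values are a description. The nearest gene to each member by this measure, among 11819 genes with a mean log2 CPM of at least 2, was Clasp2 for Dlg1 (0.95), Nup153 for Dlg2 (0.97), Yaf2 for Dlg3 (0.96) and Nisch for Dlg4 (0.97). It was Cacna1b, a presynaptic calcium channel gene, for Shank1 (0.99), Mamld1 for Shank2 (0.89) and Celf3 for Shank3 (0.94). For the Homer genes it was Uhrf2 for Homer1 (0.91), B3gat2 for Homer2 (0.76) and Dusp4 for Homer3 (0.87). Dlgap2, a SAPAP gene, was the third nearest to Shank1 (0.97).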

How the data were processed

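The libraries are polyA RNA-seq of sorted, fixed cortical PV cells. Per the submitters' design text, reads were processed by the authors with bcbio-nextgen 1.2.3, aligned to GRCm38 with STAR, quantified with Sailfish and tested with DESeq2. The deposited tables give whole-number counts per gene (counter not given in the sources used here), and TPM summarised per gene by the authors. The authors' deposited table of results gives, per the file headers, a normalized signal per library, log2 fold changes, a test statistic (score) and p-values. That signal gave whole reads for 100% of values (tolerance 0.001), totalling 10477517 to 17382059 per library, which differ from the counts and were used as an alternative. Of 54532 gene IDs 54495 matched GENCODE M21.

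From the counts, edgeR 4.0.16 (R 4.3.3) was run with filterByExpr, which kept 26257 genes and 99.2% of counts, TMM scaling and the robust quasi-likelihood test, with Benjamini-Hochberg adjustment over all genes tested and a threshold of 0.05. The genotype test used all 16 libraries without a covariate. The background test compared libraries above 1500 CPM with those under 500 CPM of nasal receptor reads, with middle libraries and genotype in the model. Group means of CPM are of TMM-scaled counts, and log2 CPM used a prior count of 2. DESeq2 1.42.0, limma 3.58.1, sva 3.50.0, other scalings and filters, covariates and left-out libraries were alternatives. The scripts were tested on simulated data. No libraries were identical.

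The 10 genes, the lists and the tests were chosen with earlier results of these data known. Named are the 10 genes, Gria2, Pvalb and Slc17a7. Of each partner list the 2 of smallest p by genotype are named, and the 2 of largest change in each direction by background among those called. Of the 3 protein-coding genes of highest r to each member 1 is printed, and Dlgap2 was added after its value was seen. Ddx49, Cdh5 and Kcnj8 were named after their values were seen. Promoter windows came from RefSeq (GRCm38.p6), which matched 8 of the 10 genes. Protein sequences were not used here.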

Additional observations from a re-analysis of the deposited data

How the results depend on the processing

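None of the 10 scaffold genes was called by genotype under any alternative run. Over all genes the genotype test called 1; it called 2 with upper-quartile scaling, 0 with protein-coding genes only, 3 with recovered reads, 14 with DESeq2, 2 on log2(TPM + 0.5) with or without a filter, 3 on log2(TPM + 0.1) and 2 on log2(TPM + 1). It called 9 with the background level as a covariate, 11 with background as a block, 9 with 1 surrogate variable, 3 with the excitatory markers as a covariate and 3 without the high-background libraries. Leaving out 1 library at a time left 1 call over all genes and 0 among the scaffold genes each time. Some genotype values changed sign, among them Dlg1 (-0.14) and Homer3 (0.21). Recovered reads gave Homer1 0.022 and Homer2 0.11. On log2(TPM + 0.5), with or without a filter, Dlg2 was 0.0086, Homer1 0.10 and Homer2 0.19; with a pseudocount of 0.1 they were 0.0085, 0.10 and 0.21, and with 1 they were 0.0087, 0.10 and 0.17. Background as a block gave Dlg3 -0.055, Dlg4 -0.063 and Shank2 -0.0030, with Dlg1 at -0.21 (edgeR unadjusted p = 0.0185, adjusted p = 0.981). The excitatory covariate gave Dlg1 0.23, Dlg2 0.33, Homer1 0.33 and Homer3 -0.20. Without the high-background libraries Homer2 was 0.019, and without the low-background ones Dlg2 was 0.055, Homer1 0.087 and Homer2 0.021. Without 1 library Dlg2 ran from -0.061 to 0.066, Homer1 from -0.075 to 0.078 and Homer2 from -0.042 to 0.024. The cause of these changes was not tested.

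The labels do not say that a replicate number marks a shared litter or batch, and same-numbered libraries did not all deviate together (r from -0.03 to 0.90 over 7 numbers; a library correlated best with its own number for 2 of 7). With the replicate number as a block 8 genes and 0 scaffold genes were called, and Dlg2 was 0.063, Homer1 0.10 and Homer3 -0.045.

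Between high and low background 20175 genes were called, 40425 without a filter and 31857 on log2(TPM + 0.5), which test other numbers of genes. Without 1 library 18345 to 22460 genes and 6 to 7 scaffold genes were called. RLE scaling and DESeq2 each gave Shank2 0.026 and Homer2 0.10. Upper-quartile scaling gave Shank1 0.090, Shank2 0.38, Shank3 0.25 and Homer2 0.45. Protein-coding genes only gave Shank2 0.061 and Homer2 0.13, and recovered reads gave Shank2 0.12 and Homer2 0.19. The stricter filter gave Homer2 0.0021 and limma-voom Homer2 0.0051, while log2(TPM + 0.5) gave Shank2 0.28, Shank3 0.12 and Homer2 0.34. Without 1 library Shank2 ran from -0.14 to 0.070 and Homer2 from -0.072 to 0.18. Depth limits Homer3 most, with 15 to 62 counts per library.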
